A study of Mus musculus with 8 samples.

Results

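The cells described here are barcodes of a mouse single-cell RNA data set that carried natural killer (NK) cell transcripts together with Gzmc, which encodes granzyme C, or Itga1, which encodes the collagen-binding integrin subunit CD49a. They numbered 1094 of the 25172 barcodes kept over 4 expression libraries. A barcode was kept with at least 500 unique molecular identifiers (UMIs, each standing for 1 captured transcript), at least 300 detected genes and no more than 10% of its UMIs from mitochondrial genes. Membership was read from raw UMIs: the sum of Ncr1, Klrb1c and Klre1 was at least 2, that of Ncr1 and Klrb1c at least 1, that of Cd3d, Cd3e and Cd3g at most 1, that of Cd79a and Ms4a1 was 0, that of C1qa, C1qb and C1qc at most 2, and that of Gzmc and Itga1 at least 1. They are set beside the 262 NK barcodes that met the same criteria but held no UMI of Gzmc or Itga1, called NK barcodes without both.

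The study profiled leukocytes sorted as CD45+ from the submandibular gland, a salivary gland, and from its draining lymph nodes, with 4 animals in the SS group and 4 in the control group, about 12 weeks old. Among the labelled samples is 1 expression library each for SS gland, SS lymph node, control gland and control lymph node, plus 4 T cell receptor libraries that were not analysed here. The labels do not spell out SS, and do not say whether the mice of a group were pooled. The expression files are named C1 to C4, and nothing in the labels or headers ties a name to a genotype or tissue. No comparison of SS with control or of gland with lymph node was therefore made, there were no replicates, and no test was possible. Values are given library by library, and intervals in parentheses are 95% intervals that cover counting error only.

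NK cells and group 1 innate lymphoid cells (ILC1) are lymphocytes without rearranged antigen receptors that kill target cells through perforin and granzymes and release chemokines and interferon-gamma. Circulating NK cells are known for Eomes and for Ly49 receptors of the Klra family, whereas ILC1 stay in tissues and are known for CD49a and CXCR6. Innate lymphocytes of the mouse salivary gland are known to mix features of both, with CD49a and the epithelium-binding integrin CD103.

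C1 held 869 of the barcodes with Gzmc or Itga1, C2 held 218, C3 held 1 and C4 held 6. They made up 15.5% (14.5 to 16.4%) of the 5616 kept barcodes in C1, 4.30% (3.76 to 4.90%) of 5067 in C2, 0.0117% (0.000297 to 0.0653%) of 8532 in C3 and 0.101% (0.0370 to 0.219%) of 5957 in C4. Among NK barcodes alone, 84.2% (81.8 to 86.4%) carried Gzmc or Itga1 in C1, 77.0% (71.7 to 81.8%) in C2, 5.26% (0.133 to 26.0%) of 19 in C3 and 27.3% (10.7 to 50.2%) of 22 in C4. The intervals of C1 and C2 do not overlap those of C3 and C4. The single barcode of C3 held 1 Itga1 UMI, and 5 of the 6 in C4 held a Gzmc and Itga1 sum of 1, so the levels below concern C1 and C2. Macrophage barcodes, with a C1q sum of at least 10 and no UMI of the Cd3, NK or B cell genes of the rule, should lack both genes and show how often free RNA gives a stray UMI: 2.72% of 2352 held Gzmc or Itga1 in C1, at a median depth of 6394.5 UMIs, and 0.588% of 340 in C2, at 9091 UMIs. Because macrophage barcodes with an NK gene UMI were left out, these shares may be too low. The median depth of NK barcodes with Gzmc or Itga1 was 7049 UMIs in C1 and 8075.5 in C2, and that of NK barcodes without both was 6340 in C1 and 7337 in C2. No NK barcode sequence occurred in more than 1 library, while 31 to 85 kept barcode sequences were shared by each pair of libraries.

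**Figure D1:**
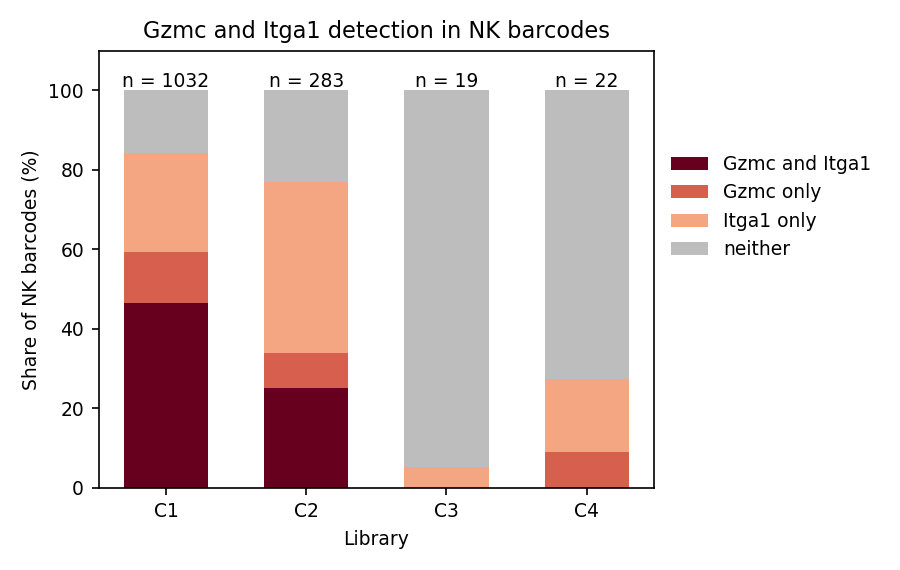
Share of NK barcodes (%) in each library by which of Gzmc and Itga1 had at least 1 UMI, with the number of NK barcodes above each bar. Barcodes with both genes form 46.4% of C1 and 25.1% of C2, while 18 of 19 in C3 and 16 of 22 in C4 held neither.

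Both genes of the rule overlapped in many barcodes, but they did not contribute equally in the 2 libraries. In C1, 479 NK barcodes held Gzmc and Itga1, 134 held Gzmc only, 256 held Itga1 only and 163 held neither. In C2 the corresponding numbers were 71, 25, 122 and 65. Gzmc was thus found in 70.5% of the members in C1 and 44.0% in C2, and Itga1 in 84.6% and 88.5%. After each barcode was thinned to 4142 UMIs, leaving out 95 shallower NK barcodes in C1 and 30 in C2, Gzmc was found in 55.2% of NK barcodes in C1 and 27.3% in C2, and Itga1 in 58.5% and 52.6%. At that equal depth Gzmc was detected in 61.9% of the barcodes with Itga1 and 45.8% of those without it in C1, and in 30.8% and 23.3% in C2.

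The amount of Gzmc per barcode ranged far more widely than that of Itga1. Summed over the members, Gzmc stood at 2609.9 (2571 to 2649.6) CPM (UMIs per 1000000 UMIs of the class) in C1 and 963 (918 to 1011) CPM in C2. Its median was 4 UMIs with a maximum of 290 in C1, and 0 UMIs with a maximum of 273 in C2. The C2 sum rested on few cells: the 5 barcodes with most Gzmc held 56.0% of its 1657 Gzmc UMIs and the top barcode alone 16.5%, whereas the top 5 held 6.73% of the 16810 in C1. Itga1 was low and even, at 297 (284 to 310.5) CPM in C1 and 266 (242 to 292) CPM in C2, with a median of 2 UMIs and a maximum of 12 and 7. A Gzmc and Itga1 sum of 20 or more was reached by 264 members in C1 and 20 in C2, and a sum of 1 was held by 136 and 50.

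Gzmc lies in a row of granzyme genes on chromosome 14 of the GRCm38.p6 assembly, next to Gzmb, which encodes granzyme B, the best known of the death-inducing granzymes. RefSeq places Gzmc at 56231397 to 56241647 and Gzmb at 56258836 to 56262334, both on the minus strand, with Gzmf, Gzmn, Gzmg, Gzmd and Gzme on the far side of Gzmc. The 250 bases before the start site in the RefSeq promoter table are shown for Gzmc and Gzmb, because these neighbours were high in the same barcodes (below), and for Gzmf, which was almost absent from them. They cover chr14:56234658-56234907, chr14:56262335-56262584 and chr14:56211408-56211657, 5′ to 3′ on the gene's strand, and the table's start site of Gzmc lies within the RefSeq gene span rather than at its outer end. Capitals mark matches on either strand to AGGTGT (the T-box core bound by T-bet and EOMES), TGTGGT (RUNX), TGANTCA (AP-1) and GGAAGT (ETS).
Gzmc: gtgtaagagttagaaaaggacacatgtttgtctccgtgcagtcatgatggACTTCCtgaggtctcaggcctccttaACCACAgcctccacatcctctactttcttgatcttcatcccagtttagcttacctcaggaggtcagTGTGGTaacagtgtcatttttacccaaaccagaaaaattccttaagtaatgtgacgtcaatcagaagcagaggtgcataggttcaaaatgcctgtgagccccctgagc
Gzmb: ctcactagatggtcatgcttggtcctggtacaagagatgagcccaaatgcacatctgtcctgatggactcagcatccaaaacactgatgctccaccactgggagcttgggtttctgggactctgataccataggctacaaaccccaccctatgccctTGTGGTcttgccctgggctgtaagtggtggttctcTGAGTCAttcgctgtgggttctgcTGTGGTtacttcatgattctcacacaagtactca
Gzmf: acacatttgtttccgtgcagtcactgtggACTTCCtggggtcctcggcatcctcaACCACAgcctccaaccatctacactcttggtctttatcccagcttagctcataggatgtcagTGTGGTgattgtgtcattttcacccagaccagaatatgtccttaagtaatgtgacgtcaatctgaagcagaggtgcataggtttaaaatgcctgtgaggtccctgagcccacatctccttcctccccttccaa
Gzmc and Gzmf each held 2 RUNX matches and 1 ETS match, and Gzmb held 2 RUNX matches and 1 AP-1 match. None of the 3 windows held the T-box letters, which says nothing about binding. Of 32851 windows of the same length in the table, 14% held the RUNX letters, 19.7% the ETS letters, 6.75% the AP-1 letters and 11.8% the T-box letters. The matches describe sequence only. Gzmf stood at 1.71 CPM in C1 and 0.581 CPM in C2, and Gzmd, Gzme, Gzmg and Gzmn held 0 UMIs in the members of both, which allows up to 0.573 CPM in C1 and 2.14 CPM in C2. Granzyme transcripts of this row are near-identical in places, so the assignment of their UMIs to single genes is uncertain.

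Genes outside the rule were compared between the members and NK barcodes without both, within each library. A gene entered with at least 50 UMIs over both classes and a mean of 20 CPM, and a ratio of at least 2-fold was counted. In C1 70 of 5853 genes (1.2%) were at least 2-fold higher and 64 (1.09%) at least 2-fold lower in the members, 2.29% in either direction. In C2 149 of 5491 genes (2.71%) were higher and 56 (1.02%) lower, 3.73% in either direction, over classes with fewer UMIs. Of 5339 genes compared in both libraries, 22 (0.412%) were higher in both, which is 46.8% of the 47 higher in C1 among them and 15.8% of the 139 higher in C2. In the same set 15 (0.281%) were lower in both, 29.4% of 51 in C1 and 31.2% of 48 in C2, and 1 (0.0187%) went opposite ways. The median log2 ratio over all genes was 0.014 in C1 and 0.018 in C2. The classes share neither cells nor libraries between C1 and C2, but the genes were chosen on the same values that are shown, so they are a description.

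**Figure D2:**
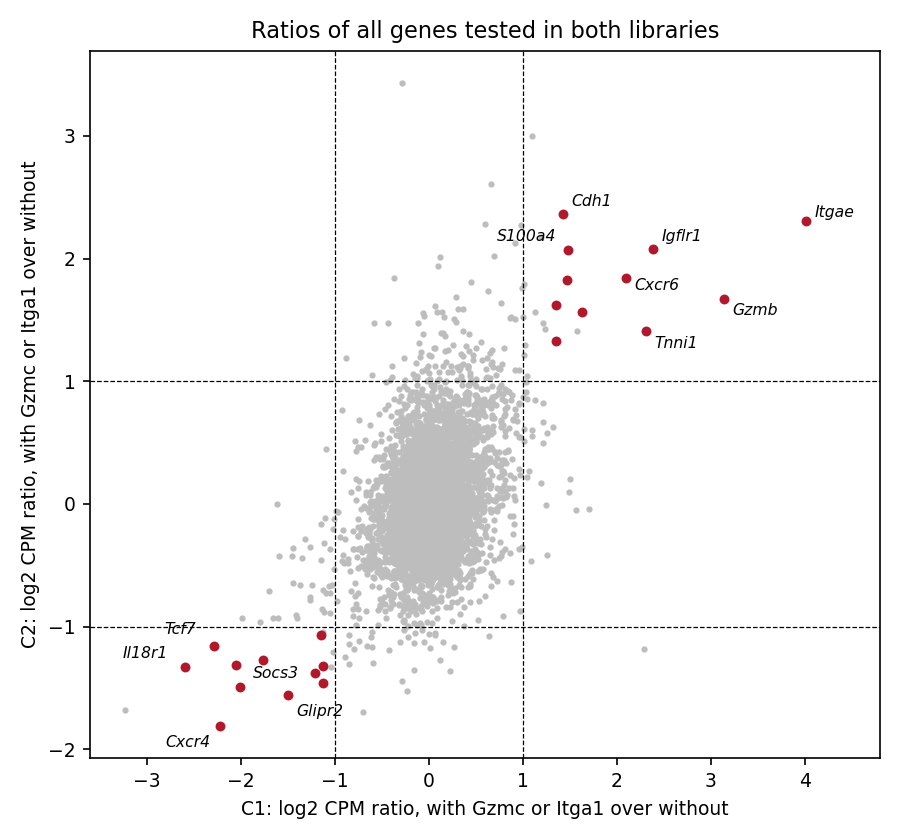
Each point is 1 of the 5339 genes compared in both libraries: x, log2 ratio of CPM between NK barcodes with Gzmc or Itga1 and NK barcodes without both in C1, and y, the same in C2, with dashed lines at 2-fold. The 22 red genes are among the 12 highest and 12 lowest, ranked by the ratio nearer to 1 of the 2 libraries. Itgae, Igflr1, Cxcr6 and Gzmb lie at upper right and Cxcr4, Tcf7 and Il18r1 at lower left.

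The genes that stood highest in the members included genes of tissue retention and of killing. Itgae, which encodes the CD103 integrin subunit (chromosome 11, 73090505 to 73147449), had 344 (330.2 to 359) CPM in the members and 21.2 (13.5 to 31.9) CPM in NK barcodes without both in C1, and 105 (90.5 to 122) against 21.3 (10.2 to 39.1) CPM in C2. It was thus 16.2-fold higher in C1 and 4.95-fold higher in C2, with intervals apart in both. It was found in 59.4% of the members and 9.20% of the others in C1, but only in 21.6% and 6.15% in C2. Gzmb had 2589 (2549.6 to 2628) CPM in the members against 294 (262 to 328) CPM in the others in C1, and 1819 (1755 to 1883) against 570.2 (504 to 643) CPM in C2, 8.82-fold and 3.19-fold higher. Cxcr6, a chemokine receptor of tissue-resident lymphocytes, had 149.98 CPM in the members against 35.1 CPM in C1, and 53.5 against 14.9 CPM in C2. Macrophage barcodes held an Itgae UMI in 0.510% and a Gzmb UMI in 2.25% of cases in C1, and in 0.294% and 1.76% in C2, below both NK classes. T barcodes (defined below) held Cxcr6 more often than the members, in 74.1% against 41.2% in C1 and 63.4% against 21.1% in C2. They held Itgae less often than the members, in 23.03% in C1 and 10.57% in C2. Gzmb was found in 15.98% of T barcodes against 73.5% of the members in C1, and 45.7% against 53.7% in C2. Members held 21.2% of the Cxcr6 UMIs of kept barcodes in C1 and 0.904% in C2.

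The other genes higher in both libraries had varied roles. S100a4, a calcium-binding protein of motile cells, had 624 CPM in the members against 223 CPM in the others in C1, and 501 against 119 CPM in C2. Cdh1, which encodes E-cadherin, the epithelial ligand of CD103, had 213 against 79.4 CPM in C1 and 164 against 31.9 CPM in C2. It was found in 67.2% of the members in C1 and 58.7% in C2, against 1.57% of macrophage barcodes in C1 and 7.35% in C2. Its level in free RNA was 18.0 CPM in C1 and 23.9 CPM in C2. Igflr1, a receptor of the tumour necrosis factor receptor family, had 91.6 against 17.5 CPM in C1 and 80.8 against 19.1 CPM in C2. Lgals3 (galectin-3), Tnni1 (a troponin subunit of slow muscle), Arnt2, Armc7 and Appl2 were also at least 2-fold higher in both, with log2 ratios between 1.32 and 2.32.

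The genes that stood lowest included some known from circulating and less differentiated NK cells. Cxcr4, a receptor for the chemokine of bone marrow and lymphoid stroma, had 31.1 (26.9 to 35.7) CPM in the members against 145 (123 to 169.5) CPM in NK barcodes without both in C1, and 40.1 (31.2 to 50.8) against 140.4 (109 to 179) CPM in C2. It was 4.67-fold lower in the members in C1 and 3.50-fold lower in C2. Tcf7, which encodes the transcription factor TCF-1, had 33.5 against 163 CPM in C1 and 95.3 against 213 CPM in C2. Il18r1, a subunit of the interleukin-18 receptor, Itga2, which encodes the CD49b integrin subunit used to mark NK cells, and Socs3, a feedback inhibitor of cytokine signalling, were lower in both libraries as well. Their log2 ratios were -2.60, -1.15 and -2.01 in C1, and -1.33, -1.06 and -1.49 in C2. Emb, Glipr2, Prr7, Lilrb4a, Sdc4 and Dok2 were also among the 12 lowest by the ratio nearer to 1. They lay between -2.05 and -1.12 in C1 and between -1.56 and -1.27 in C2.

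**Figure D3:**
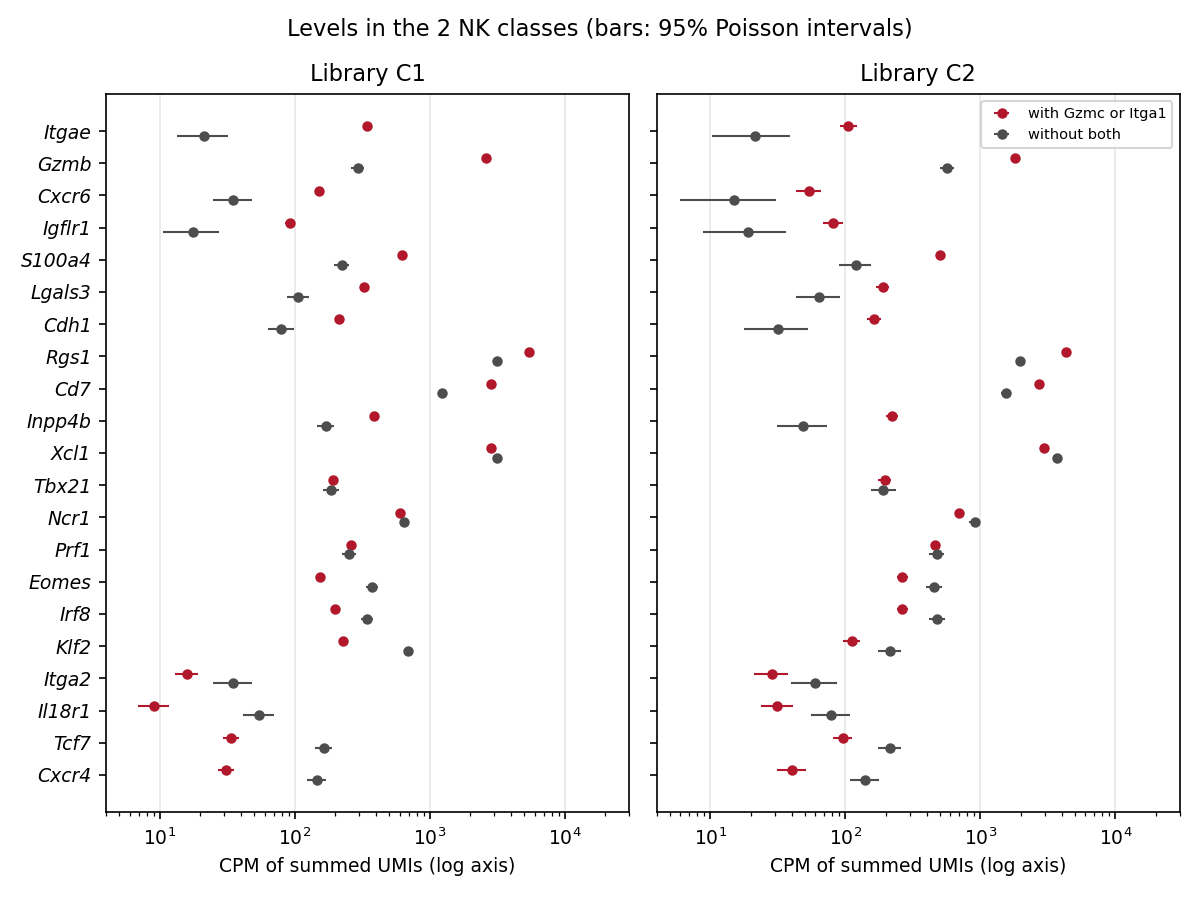
CPM of summed UMIs (log axis) for 21 genes in NK barcodes with Gzmc or Itga1 (red) and NK barcodes without both (grey), for C1 and C2, with 95% Poisson intervals as bars. Red points lie right of grey for genes from Itgae to Inpp4b and left of grey from Eomes to Cxcr4, while the intervals of Tbx21 and of Prf1 overlap.

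The label of these cells as ILC1-like was met only in part. Of 22 genes linked to tissue ILC1, 18 entered in C1, where 5 were at least 2-fold higher in the members (Cxcr6, Itgae, Inpp4b, Cd7 and Entpd1) and 1 was lower (Cd160), with a median log2 ratio of 0.44, where 1.2% of all genes were higher and the median was 0.014. In C2 15 entered and 5 were higher (Cxcr6, Itgae, Rgs1, Inpp4b and Zfp683), with a median of 0.79, where 2.71% of all genes were higher and the median was 0.018. Zfp683, which encodes the residency factor Hobit, had 109.6 CPM in the members against 58.2 CPM in C1 and 130.2 against 29.8 CPM in C2. Xcl1, a chemokine that attracts dendritic cells and a marker given for these cells, was found in 95.2% of the members in C1 and 96.8% in C2. Its level was not higher than in the others, at 2822 (2781 to 2863) against 3175 (3069 to 3283) CPM in C1 and 2983 (2902 to 3065) against 3672 (3501 to 3849.8) CPM in C2. Il7r, the interleukin-7 receptor of many ILC1, was found in only 4.26% and 1.83% of the members, and Cd200r1 in 12.2% and 5.05%.

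Features of conventional NK cells were present beside them. Eomes had 155 (145 to 165) CPM in the members against 372 (337 to 410.3) CPM in the others in C1, and 265 (241 to 290.0) against 455 (396 to 521) CPM in C2. It was thus lower in the members, 2.41-fold in C1 and 1.72-fold in C2, but was found in 49.3% and 72.9% of them. Tbx21, which encodes T-bet, was alike in level, at 193 (182 to 204) against 186 (161 to 213) CPM in C1 and 196 (176 to 218) against 191 (154 to 235) CPM in C2. None of the 6 Klra genes that entered was 2-fold apart in either library, and the summed level of all 10 Klra genes found was 2297 CPM in the members against 2451 CPM in C1 and 2456 against 2572 CPM in C2. The Klra genes are near-identical copies, so the sum is firmer than any one of them. Because of this mixture, the cells are called here by the rule that chose them.

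Of 18 genes linked to circulating NK cells, 12 entered in C1, where none was 2-fold higher and 5 were lower in the members (Klf2, Itga2, Itga4 and Cd27 among them), with a median log2 ratio of -0.81, against 1.09% of all genes lower. In C2 13 entered, 1 was higher (Itgam) and 4 were lower (Itga2, Ly6a and Ly6c2 among them), with a median of -0.86, against 1.02% of all genes lower. Klf2, which drives exit from tissue through S1pr1, had 227 (216 to 239) CPM in the members against 689 (640.3 to 740.1) CPM in C1, and 112 (96.4 to 129) against 213 (173 to 259) CPM in C2. Itgam, which encodes CD11b and is known to mark mature NK cells, had 59.0 CPM in the members against 42.5 CPM in C1, and 106 against 46.8 CPM in C2. Klrg1, a receptor of mature NK cells, was found in 2.88% and 5.96% of the members, and Cx3cr1 in 1.84% and 1.38%.

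The killing machinery was close in level apart from single genes. Of 11 genes that entered in each library, only Gzmb was at least 2-fold higher in the members, in both; Serpinb6b was lower in C1 and Gzma in C2. Prf1, which encodes the pore-forming protein perforin, had 259 (247 to 272) against 253 (224 to 285) CPM in C1 and 461 (429.5 to 494) against 474 (414 to 541) CPM in C2, with overlapping intervals. Gzma, which encodes granzyme A, had 778 CPM in the members against 664 CPM in C1, but 450.0 against 1155 CPM in C2. In both libraries fewer members than others held it, 16.1% against 30.1% in C1 and 13.8% against 27.7% in C2. Fasl, the death ligand, was found in 78.7% and 82.6% of the members.

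Receptor and effector lists held small numbers of genes past 2-fold. Over all genes the share past 2-fold in either direction was 2.29% in C1 and 3.73% in C2. The lists are short, so any list with a gene past 2-fold lay above that share. Of 11 cytokine receptor genes that entered in C1, 3 were lower in the members (Il18r1, Il18rap and Il10ra), and of 12 in C2 1 was lower (Il18r1). Of 6 inhibitory and costimulatory receptor genes, Lag3 was higher and Cd28 lower in C1, and none was 2-fold apart in C2. Of 19 NK receptor and adaptor genes that entered, 2 were higher in C1 (Cd226 and the Fc receptor gene Fcgr3) and none in C2, where Crtam was lower. Fcgr3 had 108 CPM in the members against 46.2 CPM in C1, and 77.9 against 55.3 CPM in C2. Of 7 cytokine and chemokine genes that entered in C1, only Ccl3 was 2-fold apart, and lower in the members. Of 8 in C2 only Ccl1 was, and higher, with its UMIs in 4 member barcodes. Short of 2-fold, Ccl5 had 5206 against 3861 CPM in C1 and 5937 against 4440.4 CPM in C2, while Ccl4 had log2 ratios of -0.32 and -0.55. Ifng, which encodes interferon-gamma, had 63.8 against 115 CPM in C1 and 61.0 against 85.1 CPM in C2. Of 9 chemokine receptor genes 4 entered in C1 and 3 in C2; Cxcr4 was lower in both and Gpr183 lower in C1. Of the TGF-beta pathway, known to shape innate lymphocytes of the salivary gland, 11 genes entered in C1 and 10 in C2, and the receptor gene Tgfbr1 alone was 2-fold apart. It had 44.7 CPM in the members against 22.2 CPM in C1 and 49.4 against 21.3 CPM in C2. Cell cycle genes gave no 2-fold difference among the 3 that entered in C1 and the 2 in C2, and Mki67, a marker of dividing cells, was found in 2.65% and 5.05% of the members.

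Gzmc and Itga1 did not mark the same differences. Gzmb followed Gzmc: in C1 it had 3345 CPM in barcodes with both genes, 3634 CPM with Gzmc only, 491 CPM with Itga1 only and 294 CPM with neither. In C2 it had 3841, 2934, 442 and 570.2 CPM in the same 4 sets. Both sets with Gzmc thus lay far above both sets without it, and in C2 the set with Itga1 only was below the set with neither. Itgae was graded in C1, at 460.4 CPM with both, 315 with Gzmc only, 120.5 with Itga1 only and 21.2 with neither, whereas in C2 the values were 263, 76.9, 19.5 and 21.3 CPM. In C2, therefore, the 122 of 218 members with Itga1 only did not exceed the barcodes with neither.

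Eomes and Tcf7 ran the other way. Eomes had 103, 145, 265 and 372 CPM in the sets of C1 with both genes, Gzmc only, Itga1 only and neither, and 192, 126, 332 and 455 CPM in C2. Tcf7 had 10.5, 21.5, 87.2 and 163 CPM in the same 4 sets of C1, and 16, 60.4, 148 and 213 CPM in C2. Barcodes with Gzmc were therefore the low end for both genes in both libraries, with Itga1-only barcodes in between. Xcl1 was highest with Gzmc only, at 4135 CPM in C1 and 4400.3 CPM in C2, and Tbx21 stayed between 186 and 206 CPM in all 8 sets. The Gzmc-only set of C2 held 25 barcodes, and a set without a gene's UMI also holds cells in which that gene was missed.

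**Figure D4:**
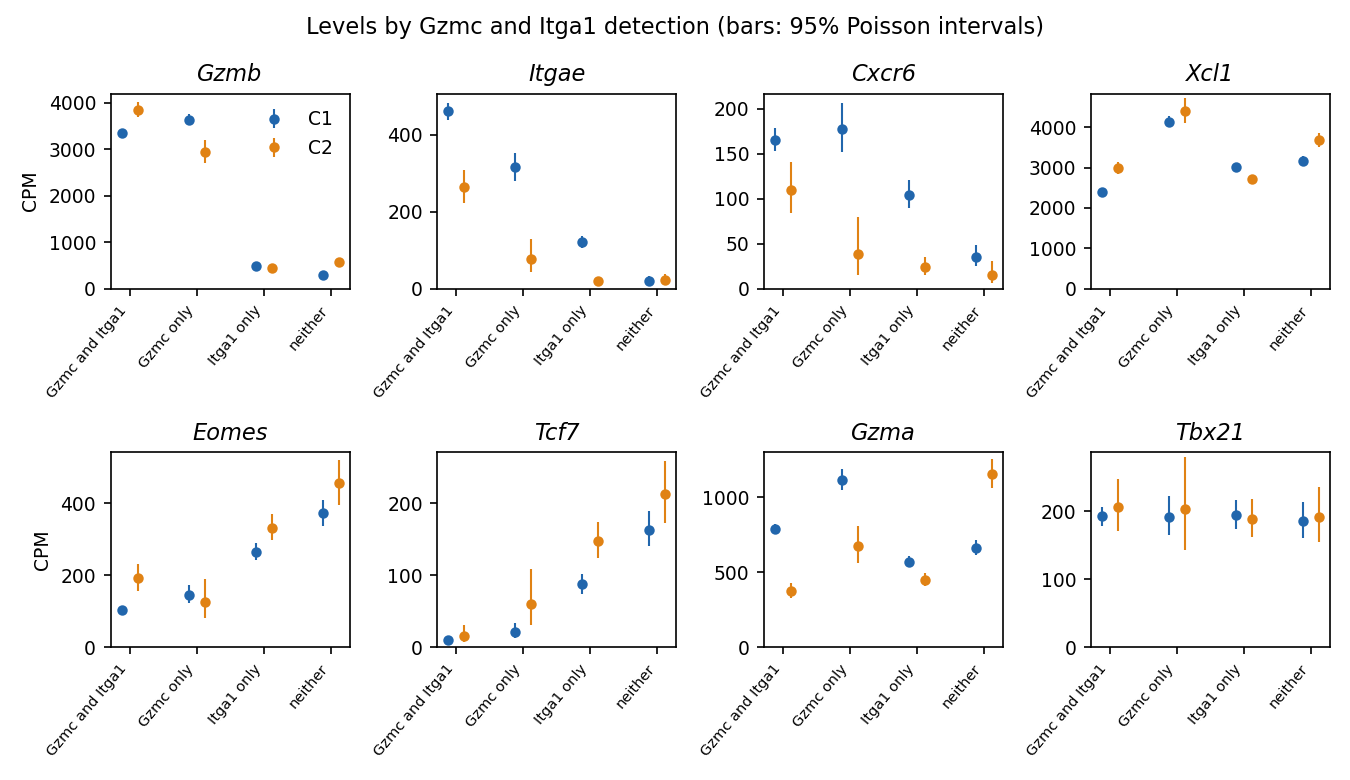
CPM of 8 genes in NK barcodes grouped by detection of Gzmc and Itga1, for C1 (blue) and C2 (orange), with 95% Poisson intervals as bars; each axis starts at 0. Gzmb is high in both sets with Gzmc, Tcf7 and Eomes are highest in the set with neither, and Tbx21 is level.

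Detection was also compared at equal depth. After thinning to 4142 UMIs, Itgae was found in 54.0% of the members and 6.43% of the others in C1, and Gzmb in 71.3% and 24.3%. Eomes was found in 38.0% of the members and 62.1% of the others, and Xcl1 in 96.5% and 98.6%. In C2 Itgae was found in 17.0% of the members and 3.77% of the others, Gzmb in 50.5% and 20.8%, Eomes in 57.5% and 73.6%, and Xcl1 in 97.5% and 96.2%. These shares kept the classes drawn at full depth. The direction for Itgae, Gzmb and Eomes was thus that of the levels in both libraries. When the classes were also drawn anew on the thinned counts, so that barcodes could change class, only 63 of the 92 named ratios past 2-fold kept their call. These 92 were counted without the minimum of 50 UMIs and 20 CPM. Among members the shares with Itgae and Gzmb were higher, and that with Eomes lower, in C1 than in C2. In C3 and C4 no Itgae UMI was found in either class, and the 6 members of C4 held 88 UMIs of Xcl1 and 54 of Gzmb, with 75.9% of the Gzmb UMIs in 1 barcode.

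The edges of the rule were examined once, as a description. With an NK sum of exactly 2, just inside, 18 members of C1 had 576 CPM of Itgae and 1745 CPM of Gzmb, and 14 barcodes with a sum of 1, just outside, had 504 and 1380 CPM (here and below the first number is Itgae's and the second Gzmb's). The 136 members of C1 with a Gzmc and Itga1 sum of 1 had 59.7 and 584 CPM, and the 163 with a sum of 0 had 21.2 and 294 CPM. In C2 the 50 with a sum of 1 had 8.09 and 607 CPM, and the 65 with a sum of 0 had 21.3 and 570 CPM. Itgae was thus not higher inside that edge of C2, and Gzmb was close. The Itgae level of the 65 rested on 10 UMIs, and no interval was taken for the 50. Rgs1, a regulator of chemokine receptor signalling, stood at 3214 CPM inside and 1968 CPM outside. The 81 members of C1 with a Cd3 sum of 1 had 325 and 2912 CPM, and 31 barcodes with a sum of 2 had 408 and 4283 CPM.

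The Cd3 limit set aside many barcodes with Gzmc and Itgae, and those without other T cell genes had higher levels of both genes than the members. In C1 286 barcodes, and in C2 89, met every other criterion but had a Cd3 sum above 1. Of these, 229 in C1 and 43 in C2 held no UMI of Trac, Cd5, Cd6, Cd4, Cd8a or Cd8b1, genes of T cells, a split chosen after their values were seen. In the 229 of C1, Cd3g alone made up 79.1% of 1900 Cd3 UMIs, and in the 43 of C2 67.9% of 386. In C1 Gzmc stood at 2609.9 CPM and Itgae at 344 CPM in the members, against 3583 and 507 CPM in the 229. In C2 Gzmc was at 963 CPM and Itgae at 105 CPM in the members, against 1107 and 164 CPM in the 43. Members held 60.2% of all Gzmc UMIs of kept barcodes in C1 and 60.9% in C2, and barcodes over the Cd3 limit, with or without those T cell genes, held 27.4% and 32.5%. T barcodes, with a Cd3 sum of at least 3 and no UMI of the NK, C1q or B cell genes of the rule, held a Gzmc UMI in 2.28% of 482 cases in C1, at a median of 5359.5 UMIs, and 0.263% of 2659 in C2, at 4686 UMIs. They held an Itga1 UMI in 26.1% and 8.05%, so in T barcodes chosen to lack the NK genes Itga1 was found far more often than Gzmc. That choice leaves out barcodes with both NK and T cell genes. The barcodes over the Cd3 limit with at least 1 of those T cell genes numbered 57 in C1 and 46 in C2. Gzmc stood at 2079 and 844 CPM in them, and Itga1 at 218 and 165 CPM.

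Markers of other cell types were present at varied levels in the members. Dendritic markers summed to 491 CPM in the members against 371 CPM in the others in C1 and 578 against 364 CPM in C2, with Itgax, which encodes CD11c, at 490.1 and 577 CPM in the members and Flt3, Clec9a and Cd209a at 0. Macrophage and monocyte markers summed to 329 CPM in the members against 439 CPM in C1 and 475 against 600.0 CPM in C2, with Ccr2 at 232 and 458 CPM in the members. Both Itgax and Ccr2 are known in NK cells. Of 12 T cell markers, the summed level was 259.7 CPM in the members against 265 CPM in NK barcodes without both in C1 and 294 against 283 CPM in C2, and 2 of the 12 were at 0 in the members of C1 and 1 in those of C2. Most of it was Lat, a signalling adaptor that NK cells also use, and the receptor constant genes Trbc1 and Trbc2, while Cd3e was at 0.466 and 3.49 CPM and Trac at 5.74 and 6.40 CPM in the members of C1 and C2. Group 3 ILC markers summed to 0.155 and 0.581 CPM and B cell markers to 0.776 and 2.33 CPM in the members of C1 and C2. The rule itself held Cd79a and Ms4a1 at 0 and limited the Cd3 and C1q genes, which are among these markers. The low Cd3e level and part of the B cell, T cell and macrophage sums were thus set by the choice of barcodes. Salivary epithelial genes, present in the free RNA of both libraries, gave 0.672% of the UMIs of the members against 0.732% of the others in C1, and 1.35% against 2.68% in C2. With the implied free RNA subtracted, 91 of the 92 named ratios past 2-fold, counted without a UMI or CPM minimum, kept their call.

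Between the libraries, members of C1 and members of C2 could be compared only as 2 single libraries of unknown condition. Of 5954 genes that entered, 70 (1.18%) were at least 2-fold higher in C1 and 42 (0.705%) at least 2-fold lower, 1.88% in either direction, with a median log2 ratio of -0.02. Of the tissue ILC1 genes, Cxcr6, Itgae, Tmem176b and Entpd1 were higher in C1 and Cd160 was lower. Il18r1 and Kit, which encodes a growth factor receptor, were lower in C1, at 9.0 and 10.9 CPM in C1 and 31.4 and 51.2 CPM in C2.

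Genes that respond within minutes to stress or activation leaned to C1. Of 17 that entered in the members, all 17 stood above C2, 8 of them at least 2-fold, and none was lower. Over all genes 1.18% were at least 2-fold higher in the members of C1. The median log2 ratio was 0.99 for the list, against -0.02 over all genes. Hspa1a and Hspa1b, which encode the inducible heat shock protein, had 147 (138 to 157) and 216 (205 to 228) CPM in C1 and 2.91 (0.944 to 6.78) and 8.14 (4.45 to 13.7) CPM in C2. They were found in only 12.9% and 17.8% of the members of C1. Fos, Fosb, Junb and Zfp36 were spread more widely; Fos had 1909 CPM in C1 and 958 CPM in C2. The summed level of the list was 15513 CPM in the members of C1 and 8823 CPM in those of C2, and 17562 and 9355 CPM in NK barcodes without both. In NK barcodes without both, 9 of 17 were at least 2-fold higher in C1, and no share over all genes was taken for that class. In the labelled protocols collagenase was used on glands and not on lymph nodes; genotype and library cannot be told apart here. Salivary epithelial genes made up 41.8% of the free RNA of C1 and 32.7% of that of C2, against 0.0055% in C3 and 0.00117% in C4, so RNA of these genes was present in both libraries compared. The part of handling in the gap was not tested.

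**Figure D5:**
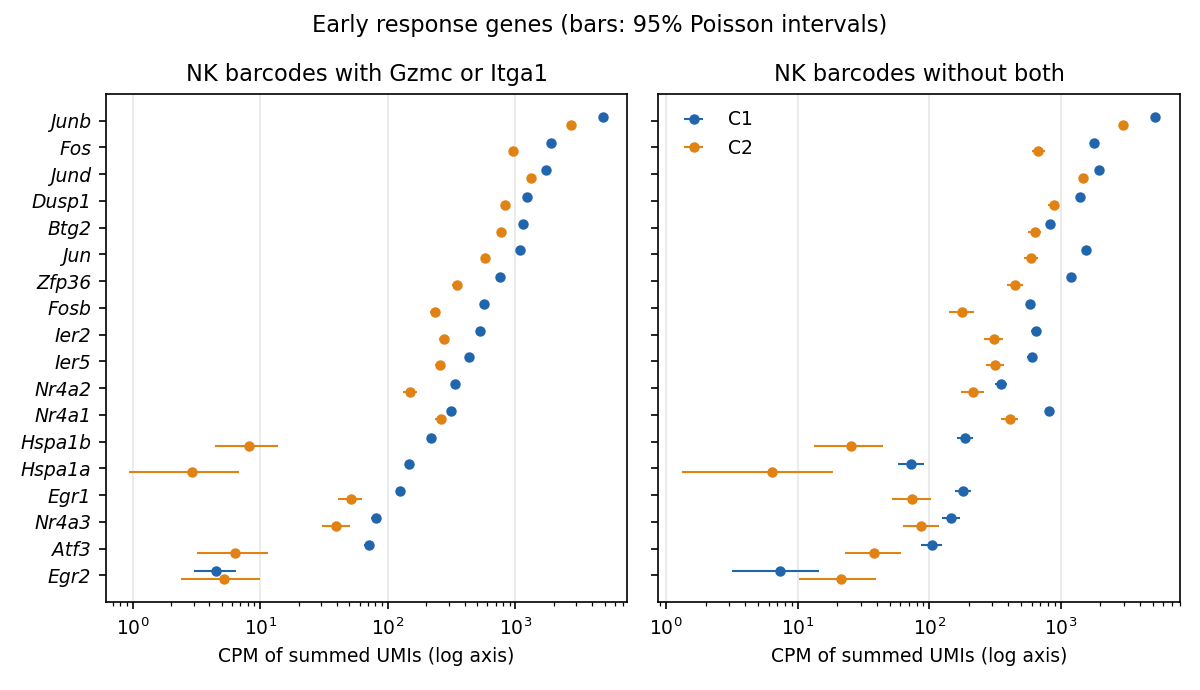
CPM of summed UMIs (log axis) of 18 early response genes in C1 (blue) and C2 (orange), for NK barcodes with Gzmc or Itga1 (left) and NK barcodes without both (right), with 95% Poisson intervals as bars. C1 lies right of C2 in both panels for every gene except Egr2, and the widest gaps in the left panel are those of Hspa1a, Hspa1b and Atf3.

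Interferon response genes leaned the other way between the libraries. Of 9 that entered, none was 2-fold higher in the members of C1, 2 were lower (Usp18 among them), and the median log2 ratio was -0.78. Over all genes 0.705% were lower in C1 and the median was -0.02. The summed level of the list was 556 CPM in the members of C1 and 976 CPM in those of C2. NK barcodes without both leaned the same way, at 718 and 909 CPM, so the lean was not particular to the members. Usp18, which restrains interferon signalling, had 13.8 (11.1 to 17.0) CPM in C1 and 47.1 (37.4 to 58.5) CPM in C2.

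Some large ratios between the libraries came from single barcodes. Of the Muc19 and A2ml1 UMIs in the members of C1, 99.0% and 97.7% lay in the same barcode, which held 15788 UMIs, 25 of them of Gzmc, 3 of Klrb1c and none of Ncr1. Of the Lyz2 UMIs, 92.3% lay in another barcode, and leaving out barcodes called doublets took the log2 ratio of Lyz2 between members and others in C1 to 0.43, against 4.12 with them. In C2, 1 barcode held 80.4% of the 240 Ccl1 UMIs. By contrast, Klk8, a secreted serine protease gene, was found in 35.1% of the members and 7.98% of the others in C1 and in 11.9% and 6.15% in C2, and Pygl, which encodes liver glycogen phosphorylase, in 23.5% and 6.13% in C1 and 4.59% and 1.54% in C2. Macrophage barcodes held Klk8 in 0.680% of cases in C1 and none of 340 in C2, which allows up to 0.882%, and Pygl in 0.468% and 3.82%, the C2 share of Pygl being near that of the members. T barcodes held Klk8 more often than the members, in 44.4% of cases in C1 and 29.3% in C2. They held Pygl less often, in 6.22% and 1.05%. The free RNA of C1 held Klk8 at 4.64 CPM and Pygl at 3.15 CPM, against 72.5 and 41.6 CPM in the members.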

How the data were processed

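Single-cell RNA libraries of sorted CD45+ leukocytes were deposited as 4 matrices of raw UMI counts over 32285 genes, not normalized, with Cell Ranger named per the file headers (4) and Cell Ranger 6.1.2, STAR 2.7.10a and mm10 per the submitters' processing notes. The labels name a different capture platform from the design text, and the T cell receptor libraries were not analysed here. The matrices, C1 to C4, held 37902916 to 77819179 UMIs each. Because no label ties them to groups, they entered no comparison between groups, and with 1 library of each kind no p-value was computed.

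UMIs were summed per class and library and expressed as CPM with exact Poisson 95% intervals, and shares carry exact Clopper-Pearson intervals; all cover counting error only. A ratio with a class at 0 used a floor of 3 counts. The doublet caller Scrublet (scanpy 1.11.5) marked 168 barcodes of C1 (2.99%, 1 of them a member) and 116 of C4 (1.95%). It marked 0 barcodes of C2 and 2 of C3 (0.0234%), too few for its calls there to be relied on. Doublets were removed only as an alternative. Free RNA was taken from barcodes of 50 to 199 UMIs. Thinning used the depth at percentile 10 of NK barcodes. Python 3.11.15, numpy 2.4.6, scipy 1.17.1 and pandas 2.3.3 were used, and the ratio step was tested on simulated data.

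Members and gene lists were chosen with earlier results of these data known. Named genes were the rule genes, up to 6 members of highest level and the largest and smallest ratio in each list, the 12 highest and 12 lowest ratios in both libraries, and the 10 highest and 10 lowest between libraries. Genes named beside a count, and Zfp683, Il7r, Cd200r1, Klrg1, Cx3cr1, Fasl, Gzmf, Tgfbr1, Mki67 and Fos where the rule did not reach them, were chosen after their values were seen. A few of these genes are left unreported but remain in the counts.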

Additional observations from a re-analysis of the deposited data

How the results depend on the processing

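The share of NK barcodes with Gzmc or Itga1 depended on the detection rule and depth. With a Gzmc and Itga1 sum of at least 2, and barcodes with a sum of 1 left out of both classes, it was 81.8% in C1, 0 in C3 and 5.88% in C4; over all NK barcodes, a sum of at least 2 was held by 71.0% of 1032 in C1, 59.4% of 283 in C2, 4.55% of 22 in C4 and 0 of 19 in C3. Thinned, with the rule read anew on the thinned counts, it was 78.1% in C1 and 62.2% in C2. Counts of genes at least 2-fold apart were lower with a minimum of 100 UMIs and 50 CPM, by construction since fewer genes entered: 25 higher and 30 lower in C1, 31 higher and 24 lower in C2, and 30 higher and 16 lower between members of C1 and C2. Thinned, they were 58 higher and 31 lower in C2 and 109 higher and 72 lower between C1 and C2, and mean CPM per barcode gave 139 lower in C2; the cause was not tested.

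Of 92 named ratios past 2-fold, the call was kept by 63 after thinning with the classes drawn anew, 80 with a Cd3 sum of 0, 81 with mean CPM per barcode, 88 with an NK sum of at least 3, 89 each with at most 5% mitochondrial UMIs and with a Gzmc and Itga1 sum of at least 2, 91 without Scrublet doublets, and 92 each with at least 1000 UMIs and with salivary genes out of the total. Log2 ratios that changed sign were those of Ccl1 in C1 (2.75, thinned), Muc19 in C1 (-1.23, Cd3 sum of 0), A2ml1 in C1 (-1.55, Cd3 sum of 0, and -0.42, thinned), Top2a and Mki67 in C2 (1.74 and 0.043, Cd3 sum of 0) and Lyz2 in C2 (-0.21 with mean CPM per barcode, and -1.91 with free RNA subtracted, an alternative chosen after seeing the data). The Muc19, A2ml1 and Lyz2 values rest on few barcodes, and the cause of the other changes was not tested. No paired analysis was possible because the libraries carry no replicate numbers and no result comes from a test.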
